A study of Mus musculus with 12 samples.

Results

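The RNA of Anapc10, Ciao2a, Odc1, Ptgr1 and Hs3st3b1 was lower in both Rex1-/- ES cell lines, HP3 and HP4, than in the wild-type line EB5 and the Rex1+/- line RKPG9, and the genes were chosen by that difference in line means. They are 5 of 6668 genes that could be named on the array. Of its 20280 gene probes, 6 carry one of these names, 5 of them by gene name and 1, A_65_P18273, only by a description that reads ornithine decarboxylase. The comparisons of HP3 and HP4 with EB5 and RKPG9 chose the genes, so their values are given as a description with no test. RKPG9 against EB5 and HP4 against HP3 were not themselves compared in the choice and were tested. The choice used the means of every line, so these tests are not independent of it.

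Rex1 is a zinc finger protein encoded by Zfp42, related to Yy1, and its RNA is a long-used marker of undifferentiated ES cells. In RKPG9, a single Rex1+/- line, the start of the reading frame on 1 allele was replaced by a fused puromycin resistance and green fluorescent protein gene. Rex1-/- lines were made from Rex1+/- cells either by high-dose puromycin, which selects for conversion of the intact allele, or by targeting it with a hygromycin vector, and the sources used here do not tie HP3 and HP4 to one of these routes. EB5 is wild type. All 4 lines descend from E14tg2a ES cells, which the methods grew without feeder cells and with LIF, so drug selection and the marker gene differ along with the Rex1 genotype and cannot be told apart from it. RNA of each line was labelled with Cy3 on 3 arrays of 2 colours, against Cy5-labelled universal mouse reference RNA, a pool from cultured mouse cells, on every array. Values are log2 ratios of line over reference unless a signal is named. Whether the 3 arrays per line stand for separate cultures is not in the labels. Errors and p-values therefore measure only how far these arrays scatter, and that scatter may be technical.

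The 5 genes have unrelated roles. Anapc10 is a subunit of the anaphase-promoting complex, the ubiquitin ligase that marks cyclin B and securin for destruction so that cells can leave mitosis, and it helps the complex hold its substrates. Ciao2a, listed on the array under an older name, is a factor of cytosolic iron-sulfur cluster delivery that is linked to iron regulatory protein 1. Odc1, ornithine decarboxylase, makes putrescine and is the rate-limiting enzyme of polyamine synthesis. Its RNA is abundant in dividing cells and its protein is held in check by the antizymes. Ptgr1 reduces 15-keto-prostaglandins and oxidizes leukotriene B4, and also acts on reactive aldehydes formed from lipids. It is known as a target of NRF2, the factor encoded by Nfe2l2 that switches on genes against oxidative stress. Hs3st3b1 adds a sulfate group at the 3-O position of heparan sulfate, the sugar chain of cell surface proteoglycans that binds many growth factors.

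The stretch of DNA just before the start of each gene is shown because the 5 genes were low in the same lines and the factor removed from those lines is related to a DNA-binding protein. Each stretch is the 120 bases before the outermost annotated start, 5′ to 3′ on the strand of the gene, from the RefSeq promoter table in build GRCm38.p6. Capitals mark any of 4 motifs found on either strand, which do not overlap each other here, namely AAGATGGC (the core bound by Yy1), GGGCGG (a GC box, which reads CCGCCC on the other strand), CCAAT and TATAAA. AAGATGGC was added to the search after the Anapc10 stretch had been read.
Anapc10, chr8:79711616-79711735, plus strand: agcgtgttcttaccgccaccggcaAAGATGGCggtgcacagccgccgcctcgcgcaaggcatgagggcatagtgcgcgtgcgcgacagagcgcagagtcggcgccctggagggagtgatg
Ciao2a, chr9:66126476-66126595, plus strand: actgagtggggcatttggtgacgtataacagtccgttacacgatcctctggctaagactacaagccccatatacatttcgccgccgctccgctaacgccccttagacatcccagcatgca
Odc1, chr12:17544688-17544807, plus strand: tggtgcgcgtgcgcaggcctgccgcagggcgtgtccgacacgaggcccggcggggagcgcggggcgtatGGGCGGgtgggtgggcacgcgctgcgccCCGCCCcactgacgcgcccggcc
Ptgr1, chr4:58987132-58987251, minus strand: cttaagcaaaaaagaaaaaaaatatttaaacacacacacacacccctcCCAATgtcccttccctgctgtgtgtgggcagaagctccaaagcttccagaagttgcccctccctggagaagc
Hs3st3b1, chr11:63922285-63922404, minus strand: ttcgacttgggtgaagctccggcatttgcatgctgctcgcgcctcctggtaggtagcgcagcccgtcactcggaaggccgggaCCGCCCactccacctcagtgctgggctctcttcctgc

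AAGATGGC stood in 1 of the 5 stretches, that of Anapc10, where its first base lay 96 bases before the start. Of 23049 genes with such a stretch in the table, 0.633% held it on either strand. GGGCGG stood in 2 of the 5, Odc1 and Hs3st3b1, against 24% of all genes. CCAAT stood in 1, Ptgr1, against 22.4%, and TATAAA in 0 against 7.18%. No motif searched was common to the 5 genes. GC content ran from 47.5% in Ptgr1 through 53.3% in Ciao2a, 65% in Hs3st3b1 and 67.5% in Anapc10 to 81.7% in Odc1, beside a median of 53.3% over all genes. A match is a run of letters and not a measured binding site.

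The genes lie on different chromosomes, in GRCm38.p6 at chr8:79711736-79777321 (Anapc10), chr9:66126596-66138968 (Ciao2a), chr12:17544808-17551502 (Odc1), chr4:58965590-58987131 (Ptgr1) and chr11:63884693-63922284 (Hs3st3b1). The probes are those of the array's own design, and where each lies within its gene was not determined here.

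Between 85.3 and 94.5% of gene probes were well above background in Cy3 on each array, with the lowest shares on the HP4 arrays (85.3 to 86.1%) and the highest on the EB5 arrays. Their median Cy3 signals, before normalization, were 481 to 487 in HP4, 520 to 545 in HP3, 541 to 546 in RKPG9 and 547 to 577 in EB5. The EB5 arrays were read by the scanner software in their own session with other background settings, so a difference from EB5 cannot be told apart from that session, while RKPG9, HP3 and HP4 share one. Both Zfp42 probes read at least 5.22 on all 12 arrays. The targeted allele is described as giving a truncated Zfp42 transcript and where the probes lie in the gene was not determined, so they do not check the labels. Of 8 ES cell markers, 6 were measured and all 6 (Pou5f1, Nanog, Zfp42, Esrrb, Dppa5a and Utf1) were well above background on every array. In HP4 against RKPG9, 4 of them fell, by 0.67 for Esrrb, 0.58 for Zfp42, 0.31 for Pou5f1 and 0.26 for Nanog (adjusted p 0.00014, 0.00024, 0.023 and 0.012, limma), and Utf1 rose by 0.27 (adjusted p 0.00076, limma), beside 19.2% of all probes lower and 20.8% higher. Against EB5, of the 6 only Zfp42 fell in HP4, by 0.53 (adjusted p 0.00049, limma), with Utf1 up by 0.21 (adjusted p 0.0038, limma) and Pou5f1 left on 1 EB5 array after outlier spots were dropped. In HP3 against RKPG9 none of the 6 passed as lower and Utf1 rose by 0.19 (adjusted p 0.011, limma). RKPG9 itself stood above EB5 by 0.47 for Esrrb and 0.38 for Nanog (adjusted p 0.0034 and 0.0014, limma). HP3 did so by 0.35 and 0.36 (adjusted p 0.021 and 0.0026, limma), with Esrrb read on 2 EB5 arrays. The other ES cell markers did not pass in these comparisons of RKPG9 and HP3 with EB5. Whether the state of the ES cells bears on the 5 genes was not tested. Less RNA per cell and fewer cells that express a gene cannot be told apart in bulk RNA. Of the markers of extraembryonic endoderm, 4 of 7 were above background on all arrays, and the list's median log2 ratio was -0.14 (EB5), -0.09 (RKPG9), -0.24 (HP3) and -0.27 (HP4). Its members Gata4, Foxa2 and Ttr were above background on 3 of the 12 arrays each. Foxa2 fell against RKPG9 by 0.92 in HP3 and 0.85 in HP4 (adjusted p 6.9e-07 and 9e-07, limma) at spots close to background, and the dim Gata6 rose in HP4 by 0.66 (adjusted p 0.00043, limma). RKPG9 stood 0.73 above EB5 for Foxa2 (adjusted p 3.3e-06, limma). From EB5, Foxa2 differed by -0.20 in HP3 (adjusted p 0.03, limma) and by -0.12 in HP4, which did not pass. Gata6 was 0.44 above EB5 in HP4 (adjusted p 0.0058, limma). Of 4 measured trophoblast markers 2 were above background on all arrays. Of these Tfap2c, also a germ cell and epithelial gene, fell in HP4 against RKPG9 by 1.11 (adjusted p 5.3e-07, limma). From EB5 it differed there by -0.80 (adjusted p 1e-05, limma). Both measured mesenchymal and both neuroectodermal markers were above background on all arrays, with Pdgfra up in HP4 by 0.86 (adjusted p 5.7e-06, limma) and Pax6 up by 0.54 in HP3 and 0.40 in HP4 (adjusted p 0.00085 and 0.0041, limma), all against RKPG9. Both were dim, with Cy3 signals of 444 to 468 for Pdgfra and 469 to 514 for Pax6. Against RKPG9, Pdgfra also rose in HP3, by 0.29 (adjusted p 0.018, limma). The other mesenchymal marker, Col1a2, rose in HP4 by 0.32 (adjusted p 0.0018, limma) and did not pass in HP3. RKPG9 differed from EB5 by -0.43 for Pdgfra and -0.30 for Pax6 (adjusted p 0.0012 and 0.021, limma), and by -0.41 for Col1a2 (adjusted p 0.00075, limma). Against EB5, Pdgfra was up in HP4 by 0.43 (adjusted p 0.001, limma). Pax6 differed by 0.24 in HP3 and 0.10 in HP4, which did not pass. Foxa2, Gata6, Tfap2c, Pdgfra, Col1a2 and Pax6 were named after their values were seen. The part of other cell types in the results was not tested.

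Anapc10 read 0.67, 0.70 and 0.71 on the EB5 arrays and 0.72, 0.79 and 0.80 on the RKPG9 arrays. Its HP3 values were -0.22, -0.19 and -0.17, and its HP4 values -0.35, -0.29 and -0.29. All 6 knockout arrays lay below the other 6 arrays, the nearest of them at -0.17 and 0.67, and the SD within a line was 0.02 to 0.05 (n = 3). Against RKPG9 the difference was -0.96 in HP3 and -1.08 in HP4 (standard error 0.03 each), that is 1.95-fold and 2.11-fold lower. Against EB5 it was -0.89 and -1.0. The anaphase-promoting complex has other measured subunits, which are given with the pathways. None of them followed Anapc10 in size, but Anapc10 was picked for its difference and they were not.

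Ciao2a read -0.59, -0.51 and -0.57 on the EB5 arrays, and the RKPG9 arrays gave -0.65, -0.68 and -0.65. HP3 gave -1.32, -1.38 and -1.40, and HP4 gave -1.60, -1.60 and -1.64. HP4 was lowest and HP3 next, both below EB5 and RKPG9, and no arrays of any pair of lines overlapped. RKPG9 lay just under EB5, a difference whose call was lost in 11 of 18 alternatives. The difference from RKPG9 was -0.71 in HP3 and -0.95 in HP4 (standard error 0.03 each), or 1.63-fold and 1.94-fold lower, and that from EB5 was -0.81 and -1.06.

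Odc1 read 1.03, 1.04 and 1.14 on the EB5 arrays, and the RKPG9 arrays gave 1.07, 1.11 and 1.08 at probe A_65_P03401, the one named for the gene. In HP3 it read 0.16, 0.14 and 0.22, and in HP4 0.25, 0.40 and 0.40. Here every HP3 array lay below every HP4 array, an order that turned with median centring in place of loess (HP4 against HP3 -0.19, adjusted p 0.046, limma), while EB5 and RKPG9 overlapped. The difference from RKPG9 was -0.92 in HP3 and -0.74 in HP4 (standard error 0.05 each), or 1.89-fold and 1.66-fold lower, and that from EB5 was -0.90 and -0.72.

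The probe A_65_P18273, described as ornithine decarboxylase but with no gene name, did not follow. The EB5 arrays gave -0.30, -0.27 and -0.23 and the RKPG9 arrays -0.46, -0.51 and -0.60. HP3 gave -0.41, -0.38 and -0.33, and HP4 -0.39, -0.41 and -0.33. Both knockout lines lay between the other lines in their means, with a difference of 0.15 from RKPG9 and -0.11 from EB5 in each. The array's annotation puts this probe in another gene cluster, U025545, than the Odc1 probe, U013795, so it is not settled which gene it measures, and its spots were dim, with a Cy3 signal of 466 to 565 over a background of 397 to 415.

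Ptgr1 read 1.31, 1.23 and 1.36 on the EB5 arrays, and the RKPG9 arrays gave 1.75, 1.58 and 1.57. HP3 gave 0.46, 0.48 and 0.48, and HP4 gave 0.43, 0.42 and 0.48. RKPG9 stood above EB5 on every array, and the knockout lines overlapped each other near a single level. The difference from RKPG9 was the largest of the 5 genes, -1.16 in HP3 and -1.19 in HP4 (standard error 0.05 each), or 2.24-fold and 2.28-fold lower. Against EB5 it was -0.83 and -0.86, in the range of the other genes.

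Hs3st3b1 read 0.91, 0.78 and 1.04 on the EB5 arrays, and the RKPG9 arrays gave 1.16, 1.06 and 1.13. In HP3 it read -0.01, 0.19 and 0.15, and in HP4 -0.01, 0.04 and 0.06. This was the noisiest of the 5 genes, with an SD of 0.13 in EB5 and 0.10 in HP3, and the knockout lines overlapped. The difference from RKPG9 was -1.01 in HP3 and -1.09 in HP4 (standard error 0.07 each), or 2.01-fold and 2.13-fold lower, and that from EB5 was -0.80 and -0.88.

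**Figure D1:**
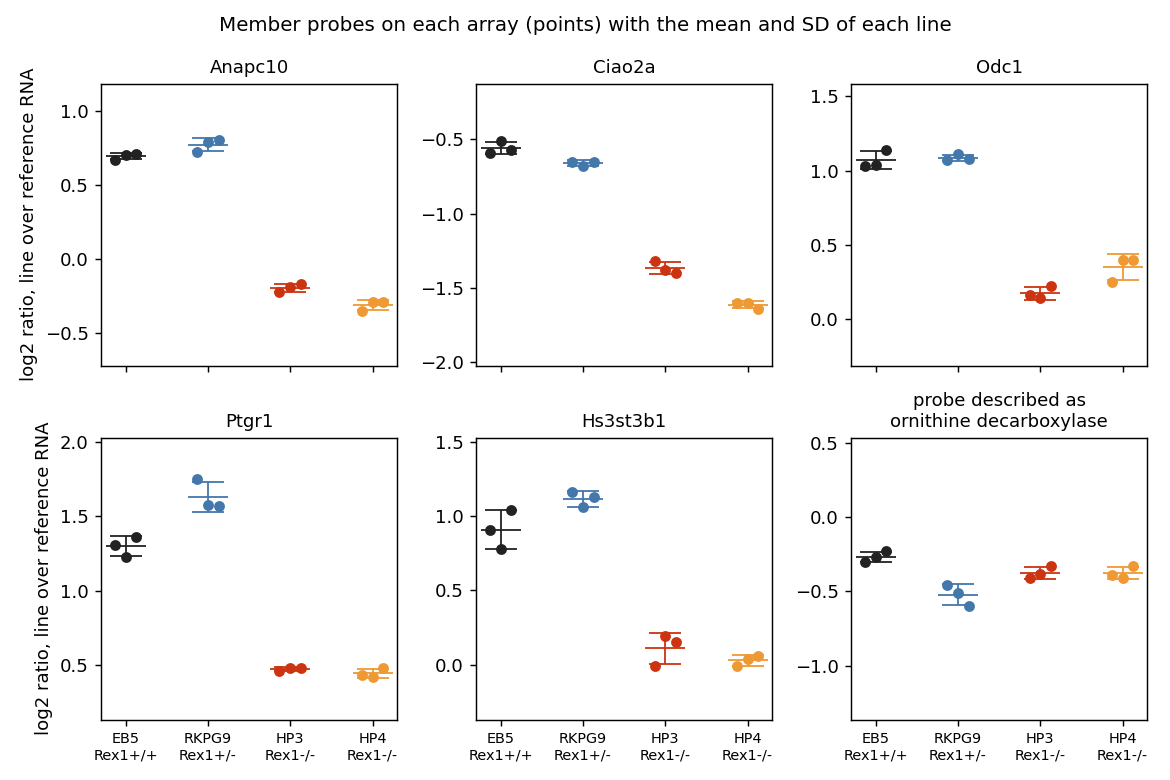
Log2 ratio of line over reference RNA (y axis, each panel spanning the same range) for the 6 probes on each of the 12 arrays, by line (x axis), with points for arrays and bars for the mean and SD of the 3 arrays. In the panels of Anapc10, Ciao2a, Odc1, Ptgr1 and Hs3st3b1 all HP3 and HP4 arrays lie below all EB5 and RKPG9 arrays, while the probe described as ornithine decarboxylase lies between -0.60 and -0.23 in all lines.

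The separation can be seen in the signals before any normalization. For Anapc10 the Cy3 signal of the line was 1224 to 1480 and 1425 to 1484 on the EB5 and RKPG9 arrays against 852 to 951 for HP3 and 641 to 695 for HP4, whereas the Cy5 signal of the reference stayed between 1955 and 2182 on all arrays. For Ciao2a the Cy3 signal was 1744 to 2201 and 1857 to 2022 on the EB5 and RKPG9 arrays against 1214 to 1343 for HP3 and 786 to 854 for HP4, with Cy5 at 6342 to 7659. At both probes the line's own signal was thus lower on the knockout arrays, though the difference was smaller in that channel than in the log2 ratio. With the Cy3 channel alone, HP3 and HP4 differed from RKPG9 by -0.77 and -0.84 for Anapc10. For Ciao2a these differences were -0.51 and -0.69. For Ptgr1 the Cy3 signal was 1373 to 1753 and 2043 to 2306 on the EB5 and RKPG9 arrays against 965 to 1090 for HP3 and 748 to 832 for HP4. For Odc1 it was 1310 to 1668 and 1760 to 1798 in EB5 and RKPG9 and 782 to 1070 and 638 to 772 in HP3 and HP4, with Cy5 less even here, at 1436 to 2152. Hs3st3b1 was dim, with 599 to 671 in EB5 and RKPG9 against 476 to 541 in HP3 and HP4 over a background of 397 to 413. Every spot of the 6 probes was well above background in both channels and none was saturated. The lower Cy3 medians of the HP4 arrays, given above, go the same way as the HP4 signals, and their part in them was not tested.

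**Figure D2:**
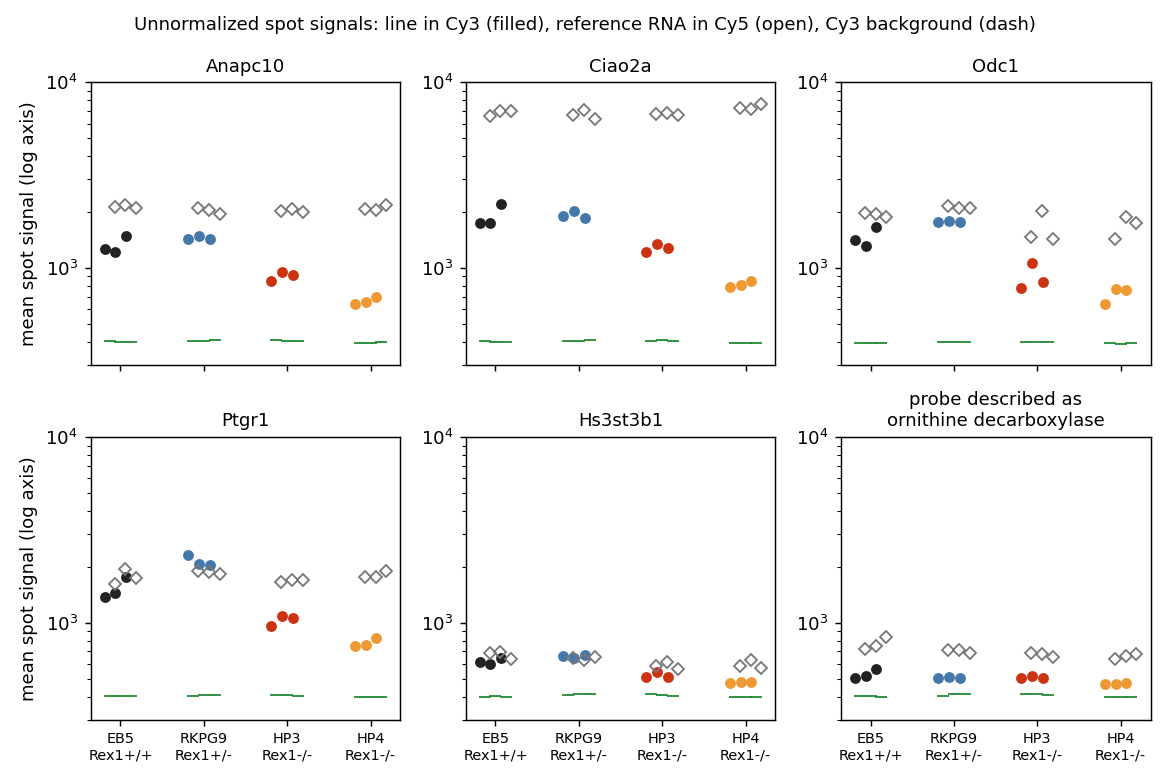
Unnormalized mean spot signal (y axis, log axis) of the 6 probes on each array by line (x axis), with the line in Cy3 as filled points, the reference RNA in Cy5 as open diamonds and the Cy3 background as green dashes. Cy3 signals of Anapc10 fall from 1425 to 1484 in RKPG9 to 641 to 695 in HP4 while the reference signals stay level, and Hs3st3b1 lies close to its background.

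The distance from the lower of the EB5 and RKPG9 means to the higher of the HP3 and HP4 means was 0.89 for Anapc10, 0.83 for Ptgr1, 0.80 for Hs3st3b1, 0.72 for Odc1 and 0.71 for Ciao2a on the log2 scale. By this distance they ranked 7, 8, 9, 12 and 13 of 20234 probes. Since the genes were picked for it, the ranks describe the choice. The rule as worded asks for a distance above 0, which 21.1% of probes had (4266). The 5 genes stand at the far end of these, down to 0.71 for Ciao2a, and that too describes the choice. A_65_P18273 was outside it at -0.15 with rank 12647. All 6 knockout arrays lay below all 6 others at 5 of the 6 member probes and at 5.43% of all probes (1102). The same arrays made the choice, so this count describes it and is no separate result. Other named genes ahead of or among them were S100a6 at 1.28, Anxa3 at 1.07, Rhox6 at 0.93, Igf2 at 0.79 and both probes of Slc38a4, an amino acid transporter, at 0.89 and 0.75.

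**Figure D3:**
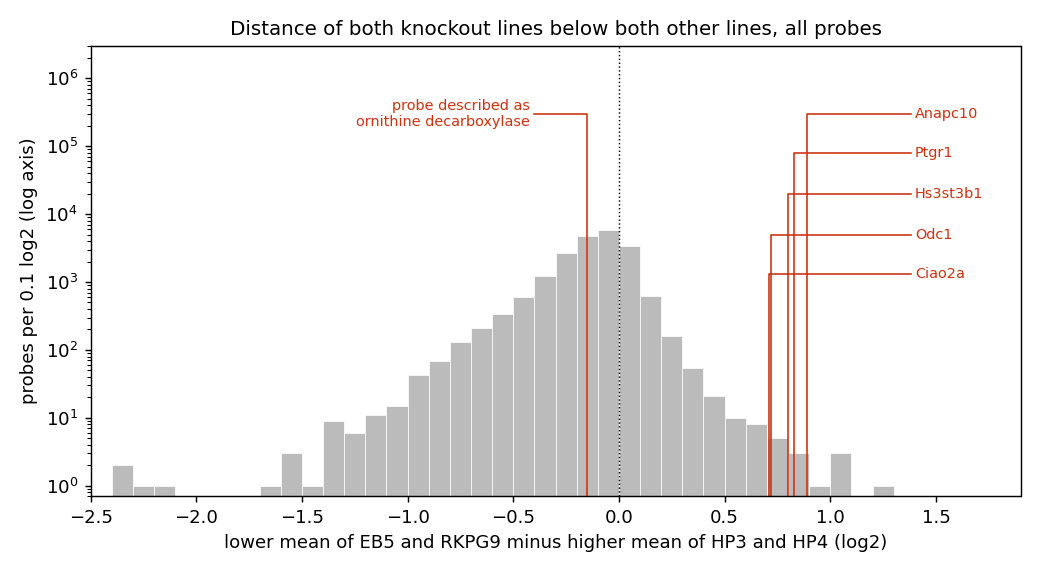
Number of probes (y axis, log axis) by the lower mean of EB5 and RKPG9 minus the higher mean of HP3 and HP4 (x axis, log2), with the 6 member probes marked in red. The 5 named genes lie at 0.71 to 0.89 in the right tail and the probe described as ornithine decarboxylase at -0.15 near the centre.

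The sizes depended on the processing more than the direction did. Over 18 alternatives each, all 20 differences of the 5 genes stayed negative, and all 6 knockout arrays stayed lowest at the 5 probes in each alternative for which this was counted. The genes were chosen for these values, so this is a description. Without background subtraction, the Hs3st3b1 difference shrank to -0.43 in HP3 and -0.47 in HP4 against RKPG9 and to -0.32 and -0.35 against EB5. With each array centred on its median in place of loess, the HP4 differences of 4 genes grew, against RKPG9 to -1.56 for Ciao2a and -1.21 for Odc1, and against EB5 to -1.70 for Ciao2a, -1.50 for Anapc10, -1.20 for Odc1 and -1.37 for Ptgr1. Those of Hs3st3b1 shrank, to -0.84 against RKPG9 and -0.72 against EB5. With the Cy3 channel alone, the HP4 difference from EB5 was -0.54 for Ptgr1 and -0.57 for Hs3st3b1.

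**Figure D4:**
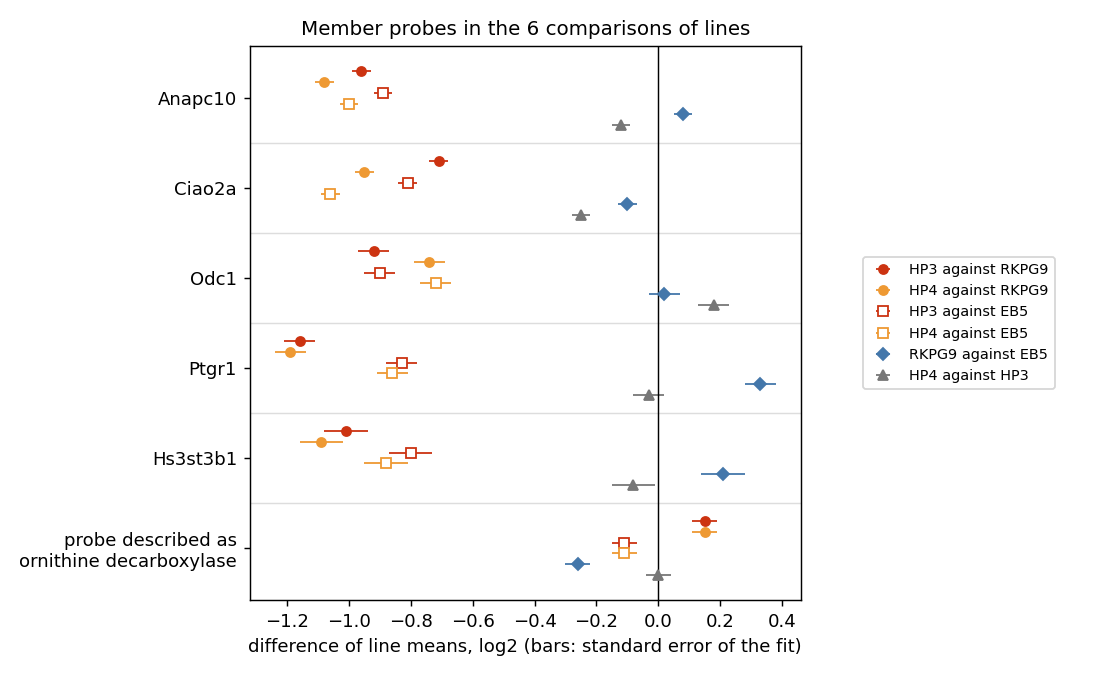
Difference of line means (x axis, log2) of the 6 probes (y axis) in the 6 comparisons of lines, with the standard error of the fit as bars. Both knockout lines lie at -0.71 or below against RKPG9 and EB5 for the 5 named genes, while RKPG9 against EB5 runs from -0.26 to 0.33 and HP4 against HP3 from -0.25 to 0.18 over all 6 probes.

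RKPG9 against EB5 asked whether the genes had already shifted in the line with 1 intact Rex1 allele. By limma with Benjamini-Hochberg adjustment over all probes, 4 of the 6 member probes passed an adjusted p of 0.05, beside 34.1% of all 20240 probes tested. Ptgr1 rose by 0.33 (standard error 0.05, adjusted p 0.00032, limma) and Hs3st3b1 by 0.21 (0.07, adjusted p 0.028, limma), while Ciao2a fell by 0.10 (0.03, adjusted p 0.037, limma). A_65_P18273 fell by 0.26 (0.04, adjusted p 0.00052, limma). Anapc10 differed by 0.08 (0.03, adjusted p 0.11, limma) and Odc1 by 0.02 (0.05, adjusted p 0.79, limma). The rises of Ptgr1 and Hs3st3b1 were opposite in sign to the differences of the knockout lines, which rest on the same EB5 and RKPG9 arrays. The calls of Ciao2a and Hs3st3b1 were lost in several alternatives, where the adjusted p of limma reached 0.30 and 0.21, and leaving out EB5 replicate 2, RKPG9 replicate 1 or RKPG9 replicate 3 left 2 member probes called. These arrays were read in different sessions, which cannot be told apart from the lines.

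HP4 against HP3 compared the knockout lines with each other within one session. Here 3 of the 6 probes passed, 2 lower and 1 higher, beside 28.5% of all 20273 tested, 14.7% lower and 13.7% higher. Ciao2a was lower in HP4 by a difference of -0.25 (standard error 0.03, adjusted p 0.00039, limma) and Anapc10 by -0.12 (0.03, adjusted p 0.026, limma). Odc1 went the other way, higher in HP4 by 0.18 (0.05, adjusted p 0.016, limma), but with median centring in place of loess its difference was -0.19 (adjusted p 0.046, limma), so that its direction was not settled. Ptgr1 differed by -0.03 (0.05, adjusted p 0.74, limma), Hs3st3b1 by -0.08 (0.07, adjusted p 0.39, limma) and A_65_P18273 by 0.00 (0.04, adjusted p 0.97, limma). Without HP3 replicate 2, only Ciao2a passed, with Anapc10 at an adjusted p of 0.069 and Odc1 at 0.056 (limma). With median centring the differences were larger, -0.73 for Ciao2a and -0.50 for Anapc10 (adjusted p 3e-06 and 6.1e-05, limma), and Ptgr1 passed as well, at -0.42 (adjusted p 0.00056, limma).

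Likeness of pattern was measured as the root mean squared difference over the 12 arrays between log2 ratios less each probe's own mean, among 7873 probes with a gene symbol measured on every array. The members were often each other's nearest genes, as their choice favours. Anapc10 was nearest to Hs3st3b1 (0.089), Ciao2a (0.103) and Ptgr1 (0.118), and Ptgr1 to Hs3st3b1 (0.081), a Slc38a4 probe (0.111) and Anapc10 (0.118). Hs3st3b1 was nearest to Ptgr1 (0.081), the same Slc38a4 probe (0.086) and Anapc10 (0.089). Ciao2a was nearest to Anapc10 (0.103), Myh9 (0.138), a nonmuscle myosin, and Fhl1 (0.140). Odc1 had no other member among its 3 nearest, which were the other Slc38a4 probe (0.117), Scd2 (0.131), a fatty acid desaturase, and Ddah1 (0.136). A_65_P18273 was nearest to Dnajc2 (0.028), Nsa2 (0.037) and Gar1 (0.038), genes of ribosome biogenesis or nascent protein folding, and stood at 0.436 from the Odc1 probe.

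The other genes of the members' pathways were not used in the choice and were tested in all comparisons. Of 182 genes on 11 lists, 104 were measured. In HP3 against RKPG9, 29 of these were lower and 20 higher, beside 10.1% of all probes lower and 12.6% higher. In HP4 against RKPG9, 33 were lower and 33 higher, beside 19.2% and 20.8%. Against EB5 the balance was different, with 42 lower and 8 higher in HP3, beside 19.1% and 11.4% of all probes, and 38 lower and 17 higher in HP4, beside 26.5% and 18.4%. RKPG9 against EB5 had 38 lower and 22 higher, beside 21.6% and 12.6%. These lists were judged in the same fit as all probes, and the comparisons of both knockout lines share the RKPG9 arrays. Each list gene stands by its brightest probe, whereas the shares cover all probes, with dim and unnamed ones among them. Counts and shares are therefore not like for like, here and for each list below, and no enrichment was tested.

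Of the subunits of the anaphase-promoting complex, 5 of 13 were measured besides Anapc10. Cdc16, a scaffold subunit, fell in both lines against RKPG9, by 0.60 in HP3 and 0.48 in HP4 (adjusted p 3.9e-07 and 1.5e-06, limma), and Anapc4 fell by 0.13 and 0.10 (adjusted p 0.019 and 0.047, limma). Anapc1 rose by 0.18 in HP4 (adjusted p 0.0011, limma), but its other probes read -0.09 and -0.05 there and did not pass. Cdc16 had been 0.38 higher in RKPG9 than in EB5 (adjusted p 9.4e-06, limma), and it lay at a difference of -0.22 from EB5 in HP3 (adjusted p 0.001, limma) and of -0.10 in HP4 (adjusted p 0.052, limma). Against EB5, 4 of the 5 subunits were lower in HP3, and 3 were lower and 1 higher in HP4. Anapc5 differed there by -0.27 and -0.32 (adjusted p 8.9e-05 and 1.8e-05, limma), Anapc4 by -0.28 and -0.25 (adjusted p 0.00014 and 0.00023, limma) and Anapc16 by -0.21 and -0.16 (adjusted p 0.0014 and 0.0047, limma, EB5 on 2 arrays). RKPG9 itself had 3 subunits lower than EB5 and 1 higher. Among 7 coactivators, partner enzymes and inhibitors, 4 rose and 1 fell in each knockout line against RKPG9. Cdc20, the coactivator of early mitosis, rose by 0.30 and 0.39 (adjusted p 9.9e-05 and 8.1e-06, limma) and Ube2c, a ubiquitin-loading enzyme of the complex, by 0.18 and 0.20 (adjusted p 0.0032 and 0.00088, limma). Of 10 substrates of the complex, 5 rose and 1 fell in HP3 and 6 rose and 3 fell in HP4, among them the mitotic kinases Plk1, up by 0.31 and 0.35 (adjusted p 1e-05 and 2.8e-06, limma), and Aurka, up by 0.29 in each (adjusted p 8.6e-05 and 6.8e-05, limma). All 4 of these genes had been lower in RKPG9 than in EB5, by differences of -0.40 for Cdc20, -0.27 for Ube2c, -0.25 for Plk1 and -0.26 for Aurka (adjusted p 6.7e-06, 0.00011, 4.4e-05 and 0.00017, limma).

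Around Ciao2a, 8 of 11 other genes of cytosolic iron-sulfur assembly were measured, of which 4 fell and 1 rose in each knockout line against RKPG9, with a median of -0.10 in HP3 and -0.11 in HP4 beside 0.00 and 0.01 over all probes. Its paralogue Ciao2b, which serves the general delivery of clusters to cytosolic and nuclear proteins, fell by 0.53 in HP3 and 0.24 in HP4 (adjusted p 1.4e-06 and 0.00019, limma). Nubp1, a scaffold protein on which clusters form, fell by 0.32 and 0.35 (adjusted p 6.8e-05 and 1e-05, limma). Ciapin1, an electron donor of the pathway, fell by 0.62 and 0.64 (adjusted p 1.9e-06 and 1.1e-06, limma), though its other probe read -0.11 and -0.15 and did not pass. The Nubp1 values of HP3 come from 2 arrays. Nubp1 and Ciapin1 had been higher in RKPG9 than in EB5, by 0.18 and 0.50 (adjusted p 0.0011 and 8.2e-06, limma). For Ciao2b only 1 EB5 array was left after outlier spots were dropped, with RKPG9 0.32 above it, HP3 at a difference of -0.21 and HP4 at 0.08. With those spots kept, the differences from EB5 were 0.34, -0.19 and 0.10 (adjusted p 2.3e-06, 0.00037 and 0.0092, limma). Among the mitochondrial assembly genes 6 were measured, 0 fell, and 1 and 2 rose. Of 6 genes of iron regulation, 4 fell in HP3 and 2 in HP4. They included Aco1, which encodes iron regulatory protein 1 and fell by 0.19 and 0.34 (adjusted p 0.0053 and 6.5e-05, limma) at its brighter probe, the other reading -0.08 and -0.01 and not passing. Tfrc, the transferrin receptor, is counted among the 4 and the 2 on a single RKPG9 array, the other 2 having outlier spots, with differences of -0.20 and -0.26 (adjusted p 0.027 and 0.0046, limma, taking that array to vary like the others). With those spots kept, they were -0.12 and -0.18 (adjusted p 0.086 and 0.0098, limma), and the HP3 call was lost. Of the other Tfrc probes, 1 read -0.02 in HP3 and -0.07 in HP4 and did not pass. The remaining probe read -0.32 and -0.44 and passed in both lines (adjusted p 7e-05 and 3.4e-06, limma).

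Around Odc1, 11 of 24 other polyamine genes were measured, of which 3 fell and 2 rose in HP3 and 4 fell and 5 rose in HP4 against RKPG9. Srm, which makes spermidine from putrescine, rose by 0.39 in HP3 (adjusted p 0.00013, limma). Azin1, a decoy for the antizymes and so a protector of ornithine decarboxylase, rose by 0.17 and 0.31 (adjusted p 0.00059 and 4.6e-06, limma). It was lowest in RKPG9, at -0.33 on each array, with -0.11 to -0.08 in EB5. HP3 gave -0.16 to -0.15 and HP4 -0.04 to -0.01. Mtap, which recycles the by-product of spermidine and spermine synthesis, fell by 0.33 and 0.20 (adjusted p 8.5e-05 and 0.0021, limma). Sat1, the enzyme that acetylates polyamines for breakdown or export, fell by 0.38 in HP4 (adjusted p 1.1e-05, limma), and Eif5a, whose protein carries the spermidine-derived residue hypusine, rose there by 0.43 (adjusted p 0.00015, limma). Sat1 was 0.30 higher in RKPG9 than in EB5 (adjusted p 7.9e-05, limma), with means of -0.56 in EB5 and -0.64 in HP4. Against EB5, Eif5a was up in HP4 by 0.28 (adjusted p 0.0025, limma). No gene of the list differed from RKPG9 by as much as Odc1 did in either line. Odc1 was picked for that difference and the others were not, so this was favoured in advance.

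Around Hs3st3b1, 15 of 31 genes of heparan sulfate synthesis and modification were measured, of which 2 fell and 3 rose in HP3 and 4 fell and 5 rose in HP4 against RKPG9. Hs6st2, a 6-O-sulfotransferase, rose by 0.34 and 0.28 (adjusted p 6.5e-05 and 0.00019, limma) at its brighter probe, and its other probe read 0.08 and 0.13 and did not pass. At the brighter probe RKPG9 had been 0.52 under EB5 (difference -0.52, adjusted p 1.7e-06, limma), and the differences from EB5 were negative in HP3 and HP4 too, -0.18 and -0.24 (adjusted p 0.0064 and 0.00064, limma). Sulf1, an enzyme that removes 6-O-sulfate outside the cell, fell by 0.44 in HP4 (adjusted p 0.0066, limma). RKPG9 stood 0.39 above EB5 for Sulf1 (adjusted p 0.016, limma), and the means were 0.84 in EB5, 1.34 in HP3 and 0.79 in HP4. Hs3st1, the 1 other 3-O-sulfotransferase measured and named here after its values were seen, differed by 0.08 in each line (adjusted p 0.49 and 0.36, limma). Of 7 core proteins that carry the chains, 3 rose in HP3 and 4 rose and 1 fell in HP4, with Sdc2, a syndecan, up by 0.33 and 0.71 (adjusted p 0.03 and 0.00016, limma), although its other probe read -0.08 in HP3, which did not pass, and 0.42 in HP4 (adjusted p 0.0013, limma). RKPG9 differed from EB5 by -0.41 and, at the other Sdc2 probe, by -0.52 (adjusted p 0.007 and 3e-04, limma). HP4 was 0.30 above EB5 at the first (adjusted p 0.029, limma) and differed by -0.11 at the other, which did not pass.

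Around Ptgr1, 15 of 28 eicosanoid genes were measured, of which 2 fell and 1 rose in HP3 and 4 fell and 4 rose in HP4 against RKPG9. Alox5ap, which hands arachidonic acid to the leukotriene-forming lipoxygenase, rose by 0.53 and 0.82 (adjusted p 5.9e-07 and 1.8e-08, limma). It was lowest in RKPG9, 0.72 under EB5 (difference -0.72, adjusted p 3.4e-08, limma), and from EB5 it differed by -0.19 in HP3 and 0.10 in HP4 (adjusted p 0.0017 and 0.031, limma). Ptgis, prostacyclin synthase, differed from RKPG9 by -0.20 and -0.24 (adjusted p 0.0091 and 0.0022, limma), but neither passed with outlier spots kept (adjusted p 0.17 and 0.069, limma). Against EB5, 6 genes of the list were lower and 1 higher in HP3 and 6 lower and 3 higher in HP4. Cbr1, a carbonyl reductase that acts on prostaglandins, was 0.64 and 0.77 above EB5 (adjusted p 5.2e-07 and 1.1e-07, limma), as it already was in RKPG9, by 0.59 (adjusted p 4.5e-07, limma). Ptges, a prostaglandin E synthase, fell against EB5 by 0.44 and 0.55 (adjusted p 2e-04 and 2.6e-05, limma), and differed from it by -0.33 in RKPG9 (adjusted p 0.001, limma). The paralogue Ptgr2, named here after its values were seen, differed by -0.01 and -0.06 (adjusted p 0.82 and 0.19, limma).

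Ptgr1 is also one of the NRF2 target genes. Of the 14 other genes measured on that list, 10 fell and 0 rose in HP3 and 8 fell and 1 rose in HP4 against RKPG9. The medians were -0.18 and -0.16 beside 0.00 and 0.01 over all probes. The 14 include Nfe2l2 itself, which stood above EB5 by 0.28 in RKPG9 and 0.19 in HP3 (adjusted p 0.00013 and 0.0031, limma). Gclm is counted as lower in both lines. Its other probe read 0.00 in HP3, which did not pass, and -0.22 in HP4 (adjusted p 0.016, limma). Gsr, glutathione reductase, read 1.09 on average in RKPG9, 0.09 in HP3 and -0.18 in HP4, a fall of 1.01 and 1.27 (adjusted p 8.2e-09 and 2.1e-09, limma). Nqo1, a quinone reductase and the textbook NRF2 target, averaged -0.30 in RKPG9, -1.32 in HP3 and -1.18 in HP4, a fall of 1.02 and 0.88 (adjusted p 4.9e-07 and 1.1e-06, limma). Pgd, of the pentose phosphate pathway, fell by 0.37 in each line (adjusted p 5.6e-05 and 3.7e-05, limma), and Tkt of the same pathway by 0.25 in HP3 and 0.35 in HP4 (adjusted p 0.00012 and 5.9e-06, limma), though its other probe read 0.14 and 0.10 and did not pass. As with Ptgr1, many of these genes were highest in RKPG9. Against EB5, RKPG9 had 8 of the 14 higher and 1 lower, with Gsr up by 0.90 and Nqo1 by 0.47 (adjusted p 1.8e-08 and 0.00016, limma), beside 12.6% of all probes higher and 21.6% lower. Against EB5, 7 were lower and 2 higher in HP3 and 6 lower and 4 higher in HP4, set against the shares of all probes given above. There Nqo1 differed by -0.56 and -0.42 (adjusted p 7.2e-05 and 0.00039, limma) and Gsr, read on 2 EB5 arrays, by -0.11 and -0.37 (adjusted p 0.036 and 1.8e-05, limma).

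**Figure D5:**
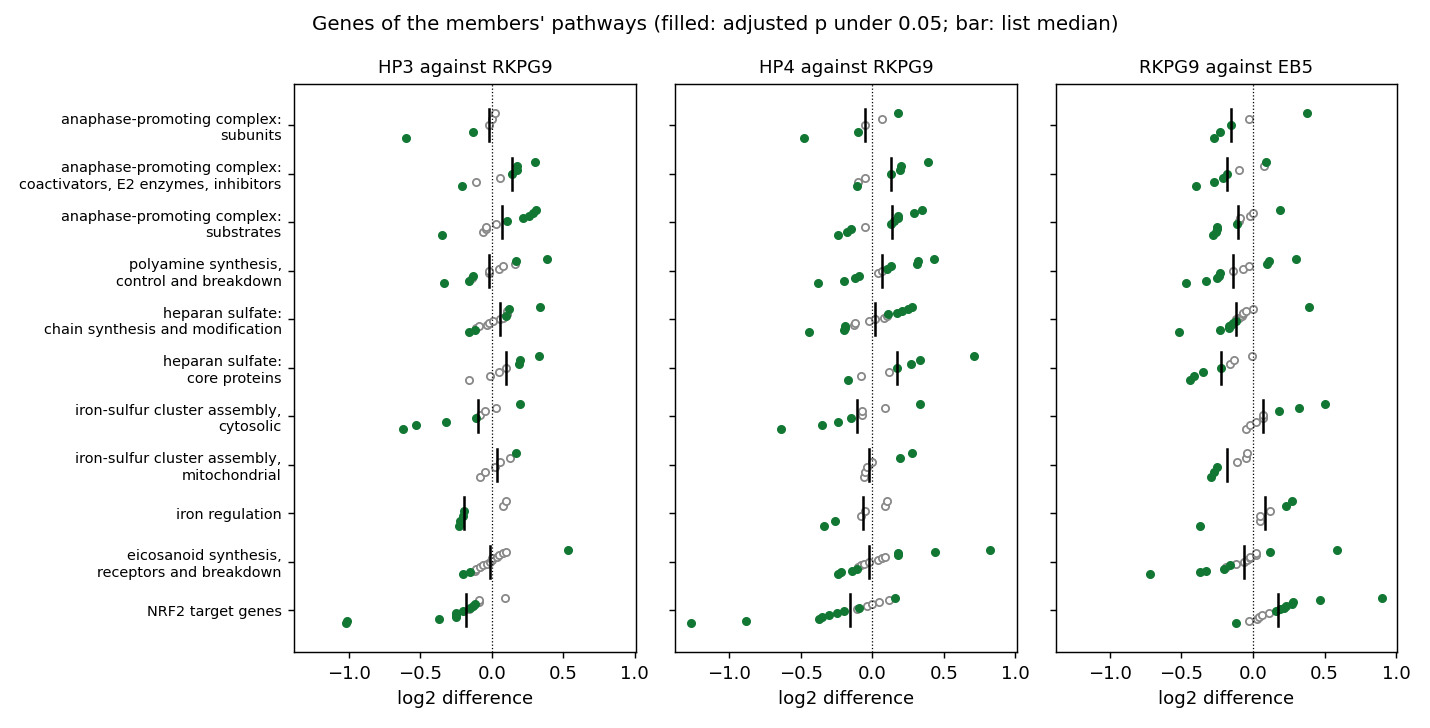
Log2 difference (x axis) of each measured gene on the 11 pathway lists (y axis) in HP3 against RKPG9, HP4 against RKPG9 and RKPG9 against EB5, with filled points for an adjusted p under 0.05 in limma and black bars for the median of each list. The NRF2 target genes lie to the left in both knockout lines (10 and 8 of 14 lower) and to the right in RKPG9 against EB5 (8 of 14 higher).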

How the data were processed

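RNA of EB5, RKPG9, HP3 and HP4 was measured on 12 arrays, 3 per line. The deposited intensities are mean spot signals and local backgrounds written by Agilent Feature Extraction, nothing subtracted. The deposited log10 ratio is that of Cy5 over Cy3. The authors' table of levels, on a log10 scale, equalled minus that ratio plus a level per probe within 0.01 for 93.82 to 95.9% of values, without centring (column medians 2.87 or 2.88), and served only as an alternative. The log2 ratios were computed here from the deposited intensities.

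Mean signals were corrected by normexp (offset 50), normalized by loess within arrays and averaged per probe, with control, retired and outlier spots left out. All arrays entered limma 3.58.1 (R 4.3.3, jsonlite 2.0.0, version 1.17.8 of data.table) with 8 residual and 3.41 prior degrees of freedom, and p-values were adjusted over all probes. Arrays correlated at 0.9286 to 0.9917 with each other. The number of arrays limits the precision. Pandas 2.3.3, numpy 2.4.6 and matplotlib 3.10.9 named probes and drew plots.

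Of 20280 probes, 8617 have a current symbol through RefSeq's GRCm38.p6 table, 4330 directly, 4135 and 148 through an older symbol (the latter in another case) and 4 through an accession, while 581 kept a symbol not in it and 11082 had none. With several probes, the brightest stood for a gene on a list. Named genes were the members, up to 4 genes per list and comparison with the largest difference that passed, ES cell markers, Zfp42 and the 3 nearest genes per member. Members, lists and tests were chosen with earlier results of these data known. The code was tested on simulated data. Alternatives were other background corrections (none, offset 0), the processed signals, median centring, Aquantile, a fit of Cy3 only, keeping outlier spots, dropping dim probes, the authors' values, 2 lines only, array weights, a replicate block and each array left out.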

Additional observations from a re-analysis of the deposited data

Results flagged for a closer look

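Anapc10, Ciao2a and Odc1 differed between the 2 Rex1-/- lines, that is, between their shifts against the same control arrays, in limma's test of HP4 against HP3. The difference was -0.12 for Anapc10 (adjusted p 0.026, limma), with each HP4 array below each HP3 array. It was -0.25 for Ciao2a (adjusted p 0.00039, limma), also with every HP4 array below. For Odc1 at probe A_65_P03401 it was 0.18 (adjusted p 0.016, limma), with every HP4 array above. In this comparison 28.5% of all probes passed. Over 18 alternatives the value ran from -0.50 to -0.05 for Anapc10, from -0.73 to -0.08 for Ciao2a and from -0.19 to 0.24 for Odc1. The calls were lost with the Cy3 channel alone, where the adjusted p was 0.49 for Anapc10 and 0.14 for Ciao2a (limma).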

How the results depend on the processing

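The 20 differences of the 5 named genes between a knockout line and EB5 or RKPG9 kept their sign in each of 18 alternatives, and all 6 knockout arrays stayed lowest at the 5 probes with each array left out (5 to 5 probes). These values served for the choice and are described without a test. Of the 6 member probes, 4 were called in RKPG9 against EB5, which became 2 with the Cy3 channel alone, median centring or an offset of 0, and 2 to 3 with single arrays left out, but 5 with array weights, the processed signals or the authors' table, where Anapc10 was gained (adjusted p 0.049, 0.042 and 0.038, limma), as it was without background subtraction (0.0037). In HP4 against HP3, 3 were called, which became 0 with Cy3 alone and 1 without background subtraction, and 1 to 3 with single arrays left out. In the reported fit, 34.1% of all probes passed in RKPG9 against EB5 and 28.5% in HP4 against HP3. The shares of all probes under each alternative are not given here, so the changed counts are no result about the members. Signs turned for Odc1 in HP4 against HP3 with median centring (-0.19) and in RKPG9 against EB5 without EB5 replicate 1 (0.00), and for Ptgr1 in HP4 against HP3 with Cy3 alone (0.12). They turned for the probe A_65_P18273 in HP4 against EB5 without background subtraction (0.00), in HP4 against RKPG9 with the processed signals or the authors' table (-0.06 each), and in HP4 against HP3 with median centring (0.07), without background subtraction (0.01), and without HP3 replicate 3, HP4 replicate 1 or HP4 replicate 2 (-0.02 to 0.02 with any single array left out). The cause was not tested.

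The Cy3 channel alone called 29 pathway genes where the reported fit called 50 in HP3 against EB5, 20 where it called 49 in HP3 against RKPG9, 40 where it called 66 in HP4 against RKPG9, 34 where it called 60 in RKPG9 against EB5 and 12 where it called 37 in HP4 against HP3. Median centring called 94 against 55 in HP4 against EB5 and 86 in HP4 against HP3, where no background subtraction called 57. The replicate numbers do not pair the arrays, since deviations of same-numbered arrays correlated at -0.18 to 0.19, over 0.1 in 4 of 18 pairs. With the replicate number as a block, 3 member probes were called in each tested comparison, as the Ciao2a difference of RKPG9 against EB5 reached an adjusted p of 0.05 (limma), and pathway genes called were 49, 50, 55, 34, 61 and 58 in HP3 against EB5, HP3 against RKPG9, HP4 against EB5, HP4 against HP3, HP4 against RKPG9 and RKPG9 against EB5. Dim spots limit Hs3st3b1 and A_65_P18273 most.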
